A study of Mus musculus with 2 samples.

Results

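Mineralised matrix and osteogenic genes were examined in cultured dental epithelial stem cells after deletion of Med1. The group was chosen by name and holds 10 genes, Ibsp, Spp1, Dmp1, Dspp, Sp7, Runx2, Alpl, Phex, Mepe and Bglap, of 16593 genes measured in the series. Of the 10 genes, 8 were paired with a probe by symbol, through 11 probes, and Spp1 and Runx2 are not analysed here because no probe was paired with them. The Med1 knockout array held RNA of cells from Med1 fl/fl mice that also carried Cre under the Krt14 promoter, and the control array held RNA of cells from Med1 fl/fl littermates, whose label lists no Cre. Both genotypes were of strain C57/BL6 and 3 months old, and the design text gives 3 mice for each, whose RNA appears to have been pooled, although this is not stated. Labial cervical loop tissue of the lower jaw was dissociated, the cells were plated sparsely so that stem cells grew as colonies, and RNA was taken after 7 days of primary culture, without passage, in medium supplemented with EGF and FGF. Cre carried by the knockout alone cannot be told apart from the deletion, and any cultured cell that never expressed keratin 14 would keep Med1. With 1 array for each genotype there was no replicate error and no test, and their number limits the precision.

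The Ibsp, Spp1, Dmp1, Dspp and Mepe genes encode acidic phosphoproteins of bone and dentine, which bind calcium or hydroxyapatite and, through an Arg-Gly-Asp motif, cell-surface integrins. Runx2 and Sp7 (osterix) are the transcription factors that set up the osteoblast lineage, with Sp7 downstream of Runx2. Alpl encodes tissue-nonspecific alkaline phosphatase, which frees phosphate from pyrophosphate, Phex is an endopeptidase of phosphate balance, and Bglap encodes osteocalcin, the vitamin K-dependent protein of mature osteoblasts. In the tooth these genes belong mainly to odontoblasts and to the cells of cementum and alveolar bone, which arise from mesenchyme, whereas enamel is made by ameloblasts of the epithelium.

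The 250 bases before the annotated start are shown for Ibsp, which gave the brightest signal of the group, for Mepe, the next gene after it on the chromosome, and for Bglap, whose start is a textbook target of Runx2. They are RefSeq sequences of GRCm38.p6, written 5′ to 3′ on the gene's strand, and capitals mark the RUNX core (TGTGGT), the CCAAT box (CCAAT) and the TATA box (TATAAA) on either strand. The windows are chr5:104299037-104299286 (plus strand) for Ibsp, chr5:104325079-104325328 (plus strand) for Mepe and chr3:88384467-88384716 (minus strand) for Bglap.
Ibsp: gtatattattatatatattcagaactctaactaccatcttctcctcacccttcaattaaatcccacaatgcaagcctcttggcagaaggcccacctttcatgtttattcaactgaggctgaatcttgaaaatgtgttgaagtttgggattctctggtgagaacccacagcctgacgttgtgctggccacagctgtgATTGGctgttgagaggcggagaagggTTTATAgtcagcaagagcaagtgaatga
Mepe: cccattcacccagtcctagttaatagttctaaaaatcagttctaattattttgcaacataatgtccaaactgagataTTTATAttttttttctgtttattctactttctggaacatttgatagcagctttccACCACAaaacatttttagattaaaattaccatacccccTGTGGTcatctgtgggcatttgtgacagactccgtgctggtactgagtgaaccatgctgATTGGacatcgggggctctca
Bglap: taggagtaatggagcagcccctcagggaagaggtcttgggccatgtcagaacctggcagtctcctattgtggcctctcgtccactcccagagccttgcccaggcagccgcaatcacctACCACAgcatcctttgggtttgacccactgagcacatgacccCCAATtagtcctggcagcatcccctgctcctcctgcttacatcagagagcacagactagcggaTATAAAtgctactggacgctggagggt
Counted back from the start, the first base of each match lay at -54 (CCAAT box, reversed) and -28 (TATA box, reversed) in Ibsp, and no RUNX core was found in that window. Mepe held RUNX cores at -118 (reversed) and -80, a CCAAT box at -21 (reversed) and a TATA box at -173 (reversed). Bglap held a RUNX core at -132 (reversed), a CCAAT box at -90 and a TATA box at -27. No matches overlapped in these 3 windows. Over all 32851 windows of this length, 14.0% held the RUNX core, 33.8% the CCAAT box and 12.4% the TATA box. Of the 11 windows listed for 8 of the 10 genes, 5 held a RUNX core, 6 a CCAAT box and 5 a TATA box. These are not the 8 genes with a probe, since Spp1 and Runx2 had windows and Sp7 and Dspp had none. These matches describe the letters of the windows only.

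The arrays were of similar brightness, with 10935 of 25697 probes (42.6%) detected on the knockout array and 11086 (43.1%) on the control array, at a detection p-value under 0.01. Med1 itself had a signal of 412 on the knockout array and 914 on the control array by its brightest probe, 2.81-fold lower after background correction, and its 3 other probes read 164 to 251 and 162 to 273. Whether any of these probes lies in the deleted part of the gene is not known here, so they do not settle the genotype. The labelled epithelial identity was borne by Krt14 (36803 and 38349), Trp63 (6783 and 8366) and Cdh1 (5379 and 4948), each first on the knockout and then on the control array. Krt5 was 2.33-fold lower (10163 and 22154), Igfbp5 6.57-fold higher (904 and 276), and Sox2, Bmi1 and Lrig1 differed by under 2-fold. Without background correction Igfbp5 was 3.24-fold higher. The stem cell markers Lgr5 and Sfrp5 were not detected on either array. Sex-linked transcripts differed between the arrays, so the sex make-up of the RNA and the genotype cannot be told apart for any difference given here. Xist read 3131 on the knockout array and 168 on the control array, while Eif2s3y (888 and 2472), Kdm5d (297 and 564), Uty (210 and 296) and Usp9y (149 and 478) were lower on the knockout array.

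Of the 8 measured genes, Ibsp and Sp7 were detected, both on the knockout array only. The share of all 16593 genes detected on at least 1 array was 49.5%. Because both genes passed detection only through the array where they were bright, they had to differ, and no weight rests on their number. Both were at least 2-fold higher by measured difference, against 8.35% of the 8217 detected genes, and 0 were at least 2-fold lower, against 6.52%. With lower bounds in place of measured differences, Ibsp alone stayed past 2-fold, against 6.86% of all detected genes. Of the 439 genes detected on the knockout array only, as both members were, 162 stayed past 2-fold in this way.

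Among the acidic phosphoproteins, Ibsp, which encodes bone sialoprotein, a nucleator of hydroxyapatite, stood far above its background. Its brighter probe gave a signal of 1324 on the knockout array and 172 on the control array, with detection p-values of 0 and 0.363. The second Ibsp probe gave 399 and 163, again detected on the knockout array only. Both probes therefore placed Ibsp above the lowest detected signal of the knockout array (241) and below that of the control array (237). After background correction the brighter probe read 10.22 and 4.95 on the log2 scale, a difference of 5.26. Since the control value is below detection, the size is given as at least 15.1-fold higher, and at least 3.16-fold by the second probe. Every such bound here sets the bright value against the lowest detected value of the other array (6.30 on the log2 scale on the control array) or the dim probe's own value where that is higher, and is a bound only after this background correction. Without the correction the Ibsp probes were 7.19-fold and 2.35-fold higher. The measured log2 differences of the probes, 5.26 and 3.16, were 2.10 apart, with both control values below detection.

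Dmp1, Dspp and Mepe, the other measured members of that family, were not detected on either array. Dmp1, dentine matrix protein 1, made by osteocytes and needed for phosphate balance, read 206 on the knockout array and 163 on the control array. Dspp, the precursor of the dentine sialoprotein and phosphoprotein made by odontoblasts, read 172 and 176. Mepe, a matrix phosphoprotein of osteocytes, read 203 and 203. Detection p-values for these 3 genes lay at 0.0789 or above, so neither presence nor a difference could be measured for them.

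Osteocalcin gave different readings for its near-identical gene copies. The 3 probes of Bglap were not detected on either array, with 173 to 206 on the knockout array and 154 to 177 on the control array. Bglap2, the neighbouring copy, which is not among the 10 genes, read 313 on the knockout array and 181 on the control array, and was detected on the knockout array only. Its log2 values of 7.31 and 5.10 give at least 2.02-fold higher, close to the 2-fold rule, and 1.68-fold without background correction. Probes of near-identical copies can share signal, so the copy that gave this signal is uncertain. No probe was paired with Bglap3.

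Of the transcription factors, only Sp7 was measured. It read 279 on the knockout array and 174 on the control array, with detection p-values of 0 and 0.338. The knockout signal lay just above the lowest detected signal of its array. The log2 values were 6.94 and 4.98, a measured 3.87-fold difference, but the bound is at least 1.55-fold higher, under the 2-fold rule.

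Both enzymes lay just outside detection. Alpl read 223 on the knockout array and 224 on the control array, with detection p-values of 0.0301 and 0.0201, and the signals were nearly equal. Phex, an X-linked gene, read 237 on the knockout array and 208 on the control array, with detection p-values of 0.0125 and 0.0652, the closest of the undetected genes to the threshold. Xist differed between the same arrays, as given above, and its part in the Phex reading was not tested. Over the 8 probes of the 6 undetected genes, signals ran from 172 to 237 on the knockout array and from 154 to 224 on the control array, and 5 of the 8 were higher on the knockout array.

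**Figure D1:**
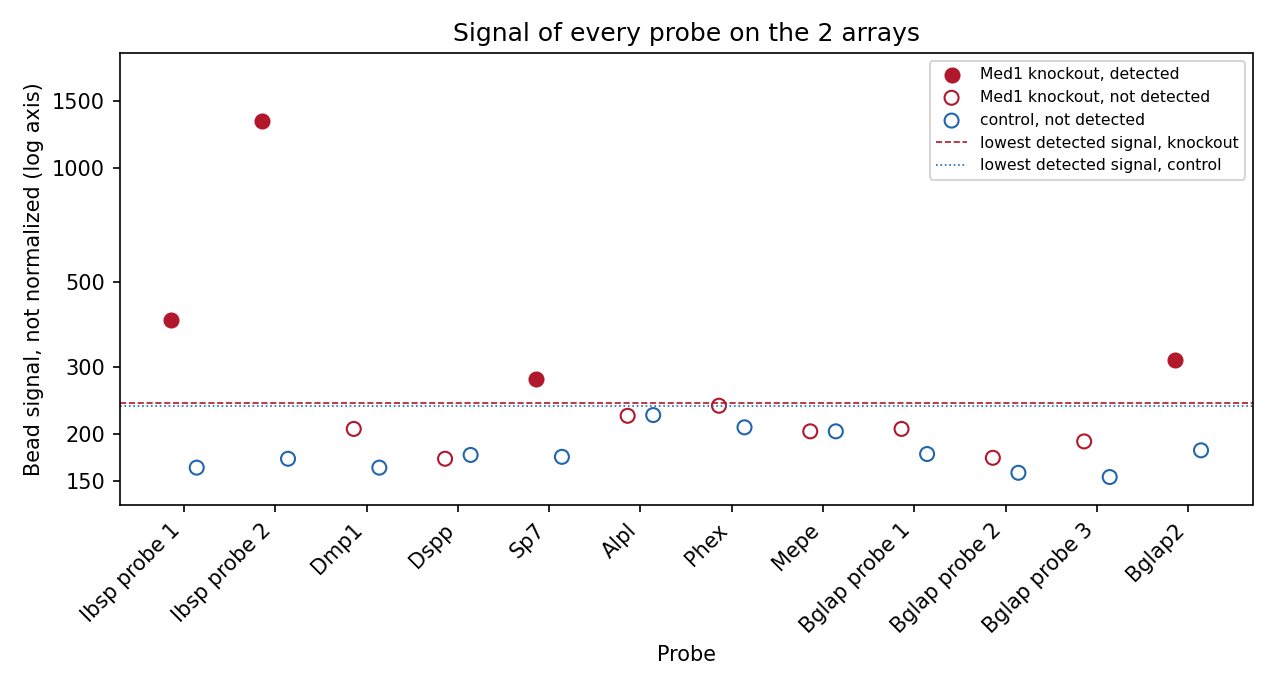
Bead signal without normalization (log axis) for each probe of the 8 measured genes and of Bglap2, with the knockout array left of the control array and filled points for detected probes. The Ibsp probes at 399 and 1324, Sp7 at 279 and Bglap2 at 313 on the knockout array are the only points above the lowest detected signals (241 on the knockout array and 237 on the control array).

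The size of each difference moved with the treatment of background. The direction did not over the settings tried, but detection of the 3 genes on the knockout array only fixed it in advance. For Ibsp the log2 difference ran from 2.85 without background correction to 5.27 with median scaling, so that each setting kept it past 2-fold. For Sp7 it ran from 0.63 to 1.95, and for Bglap2 from 0.75 to 2.21, and both fell under 2-fold without background correction and in the deposited processed values. In those deposited values Ibsp read 1280 on the knockout array and 168 on the control array, Sp7 267 and 169, and Bglap2 301 and 176.

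**Figure D2:**
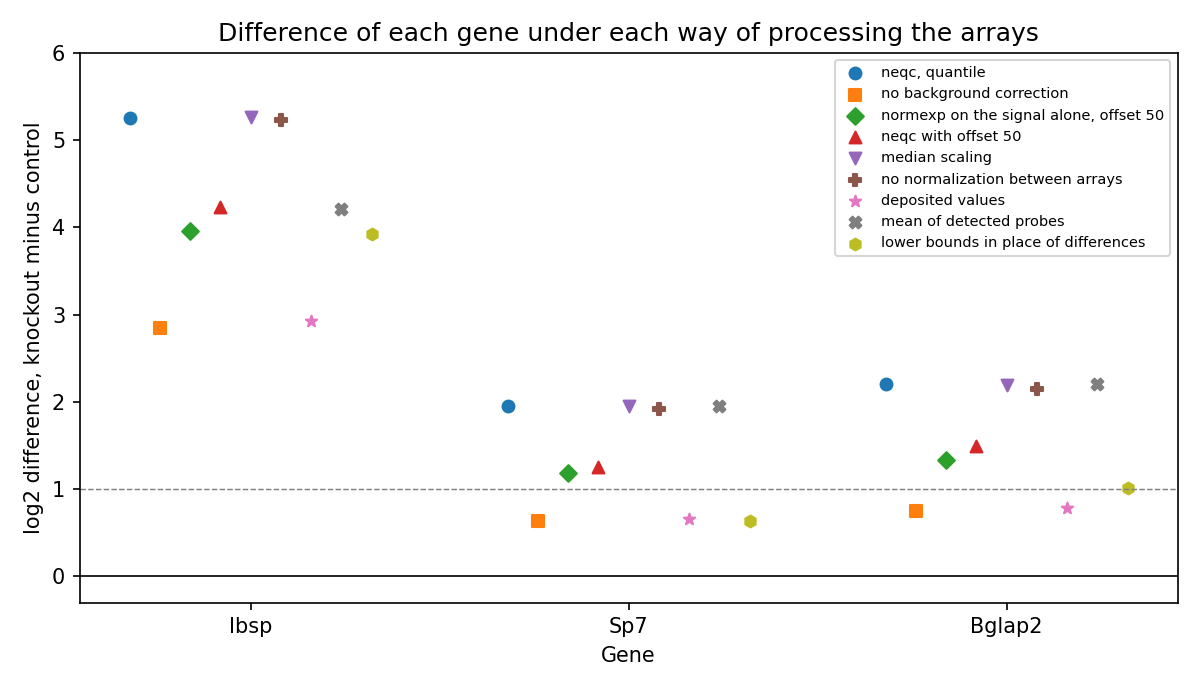
The log2 difference, knockout minus control, of Ibsp, Sp7 and Bglap2 under 8 ways of processing the arrays and as a lower bound, with a dashed line at 2-fold. Ibsp stays between 2.85 and 5.27, while Sp7 (0.63 to 1.95) and Bglap2 (0.75 to 2.21) cross the line.

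Set among all detected genes, 18 of 8217 had a larger positive difference than Ibsp and 241 a larger one than Sp7. By lower bound, 29 genes exceeded Ibsp and 1010 exceeded Sp7. Genes detected on the knockout array only numbered 439 (5.34% of those detected), and those detected on the control array only 506 (6.16%). Of the 439, 16 had a larger bound than Ibsp, 159 a larger one than Bglap2 and 224 a larger one than Sp7. By its brighter probe Ibsp was thus near the top of the knockout-only genes, and Sp7 was in their middle. The second Ibsp probe had a log2 bound of 1.66, against 3.92 for the brighter one, and would rank lower.

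**Figure D3:**
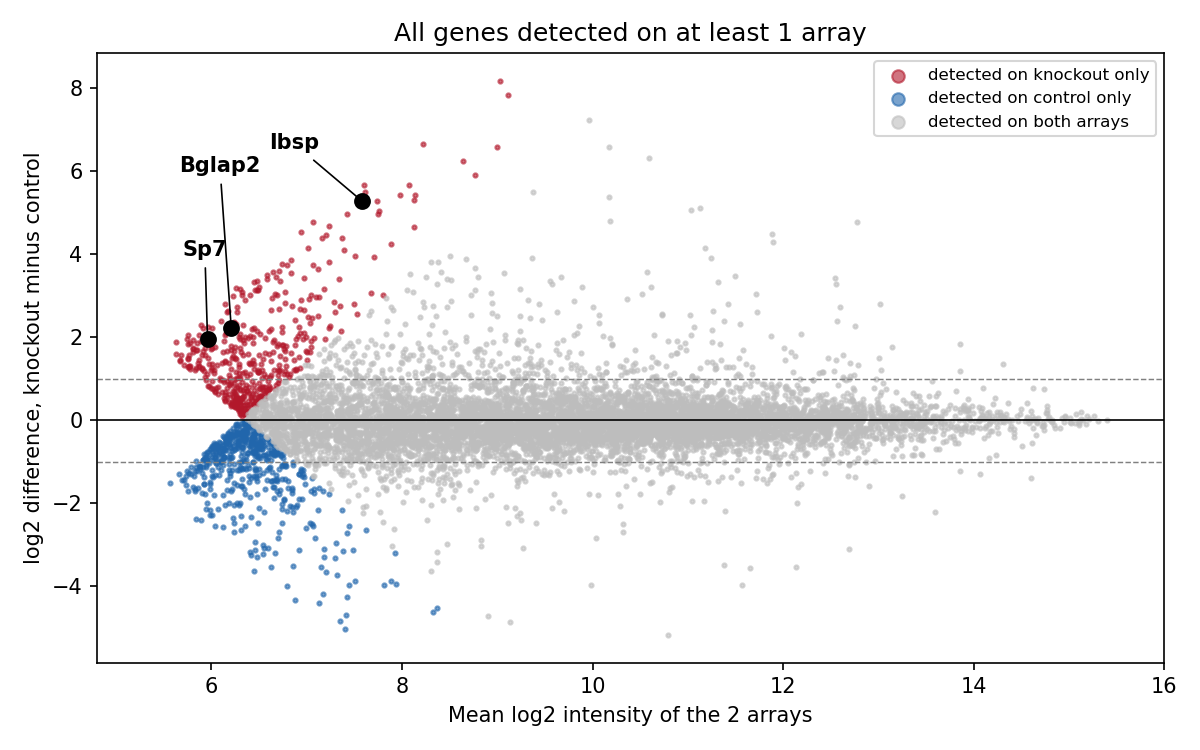
Mean log2 intensity of both arrays against the log2 difference, knockout minus control, for 8217 detected genes, with colours for the array on which a gene was detected and dashed lines at 2-fold. Ibsp (5.26, brighter probe) lies high in the arm of genes detected on the knockout array only, and Sp7 (1.95) and Bglap2 (2.21) lie among its dimmer genes.

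Other genes of mineralised tissue were taken from lists and read against a median difference of -0.06 over all detected genes. Of 18 measured matrix proteins of bone and dentine, 10 were detected. Of these, 5 were higher by 2-fold or more, 2 were lower by as much, and the median was 1.28. Detection on the knockout array only, which fixed the direction in advance, held for 4 of the 10, Col1a1, Lum and Dcn among them. Col1a1, the chain that makes up most of the organic matrix of bone, read 836 on the knockout array and 192 on the control array (at least 8.82-fold higher). The small leucine-rich proteoglycans Lum (706 and 192, at least 7.13-fold), Dcn (425 and 184, at least 3.49-fold by its brighter probe) and Bgn (1120 and 297, 7.3-fold) were higher too, as was the fibrillar collagen Col5a1 (1424 and 540, 3.49-fold). The other detected Dcn probe had a smaller measured log2 difference, 1.60 against 2.93 for the brighter one. Col1a2, the partner chain of type I collagen, was not detected on either array (211 and 181). The 2 lower genes were the adhesive glycoproteins Thbs1 (428 and 1398, 4.36-fold) and Tnc (4738 and 9472, 2.12-fold). Without background correction the 5 higher and 2 lower genes kept their side of 2-fold, with smaller sizes for Col1a1 (4.16-fold), Lum (3.52-fold), Dcn (2.23-fold) and Bgn (3.76-fold). Col5a1, Col1a2, Thbs1 and Tnc were named after their values were seen.

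Enzymes, transporters and other genes linked to phosphate or mineral, not all of them suppliers of phosphate, did not move together. Of 12 measured, 8 were detected, 1 was at least 2-fold higher by measured difference (0 by lower bound) and 1 lower, with a median of 0.10. Smpd3, a neutral sphingomyelinase needed for normal bone mineralisation, read 263 on the knockout array and 160 on the control array, at least 1.34-fold higher. Fam20a, the pseudokinase partner of the kinase Fam20c in enamel, read 540 and 3006, 7.14-fold lower. Ank, a pyrophosphate exporter, differed by 0.82 and Entpd5 by 0.46 on the log2 scale. Phospho1, a phosphatase of matrix vesicles, and Fam20c, which phosphorylates the acidic phosphoproteins, were not detected.

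Of 15 proteases that cut or mature matrix proteins, 9 were detected. The 2-fold rule was passed upward by 3 of them and downward by 1, around a median of -0.17. The gelatinase Mmp2 read 2513 on the knockout array and 402 on the control array (10.1-fold higher), and the collagenase Mmp13, made by osteoblasts and chondrocytes in bone, read 462 and 205 (at least 3.99-fold higher). Ctsk, the collagen-degrading cathepsin, read 404 and 264 (2.41-fold higher), and Bmp1, the procollagen C-proteinase that also cleaves Dmp1 and Dspp proteins, 2683 and 5506 (2.11-fold lower). Without background correction Mmp2 was 6.25-fold, Mmp13 2.2-fold and Ctsk 1.53-fold higher, the last under the 2-fold rule. The receptors for these matrix proteins were close to level. Of 10 measured, 6 were detected and none was 2-fold different in either direction, with log2 differences of -0.40 (Cd44, an osteopontin receptor), -0.33 (Itga5), -0.23 (Itgb1) and 0.21 (Itgav) as the 4 largest by each gene's brightest probe. The 4 other detected probes of Cd44 were at -0.05, 0.04, 0.07 and 0.26.

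Among 17 measured transcription factors of osteoblasts, odontoblasts and tooth mesenchyme, 11 were detected, with 3 at least 2-fold higher (1 by lower bound), 3 lower and a median of 0.18. Without background correction 0 were higher and 1, Hey1, was lower. The homeobox gene Msx2 read 363 on the knockout array and 236 on the control array (at least 2.68-fold higher, but 1.53-fold without background correction). Msx1, its paralogue of dental mesenchyme, read 296 and 193 (at least 1.78-fold higher), and Twist1, an inhibitor of Runx2 protein, 255 and 194 (at least 1.23-fold higher). Hey1, a Notch and BMP target, read 415 and 1578 (5.27-fold lower). Runx1, named after its values were seen, read 1018 and 2050 (2.09-fold lower), and Sox9, likewise added, 1790 and 3544 (2.04-fold lower), and both were under 2-fold without background correction (1.91-fold and 1.94-fold). Dlx5, a homeobox activator of osteoblast genes, and Runx3 were not detected.

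Of 22 signals and receptors, 10 were detected, 2 at least 2-fold higher (1 by lower bound) and 1 lower (0 by lower bound), with a median of -0.16. Bmp4, a signal exchanged between dental epithelium and mesenchyme, read 894 on the knockout array and 446 on the control array (2.71-fold higher), and its antagonist Nog read 310 and 191 (at least 1.97-fold higher). Fgfr1 read 193 and 319 (at least 1.90-fold lower), and Smad5, a transducer of BMP signals, differed by -0.58, with other detected probes at -0.75 and 1.04. Bmp2, Sost, Pth1r and Ihh were not detected on either array.

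**Figure D4:**
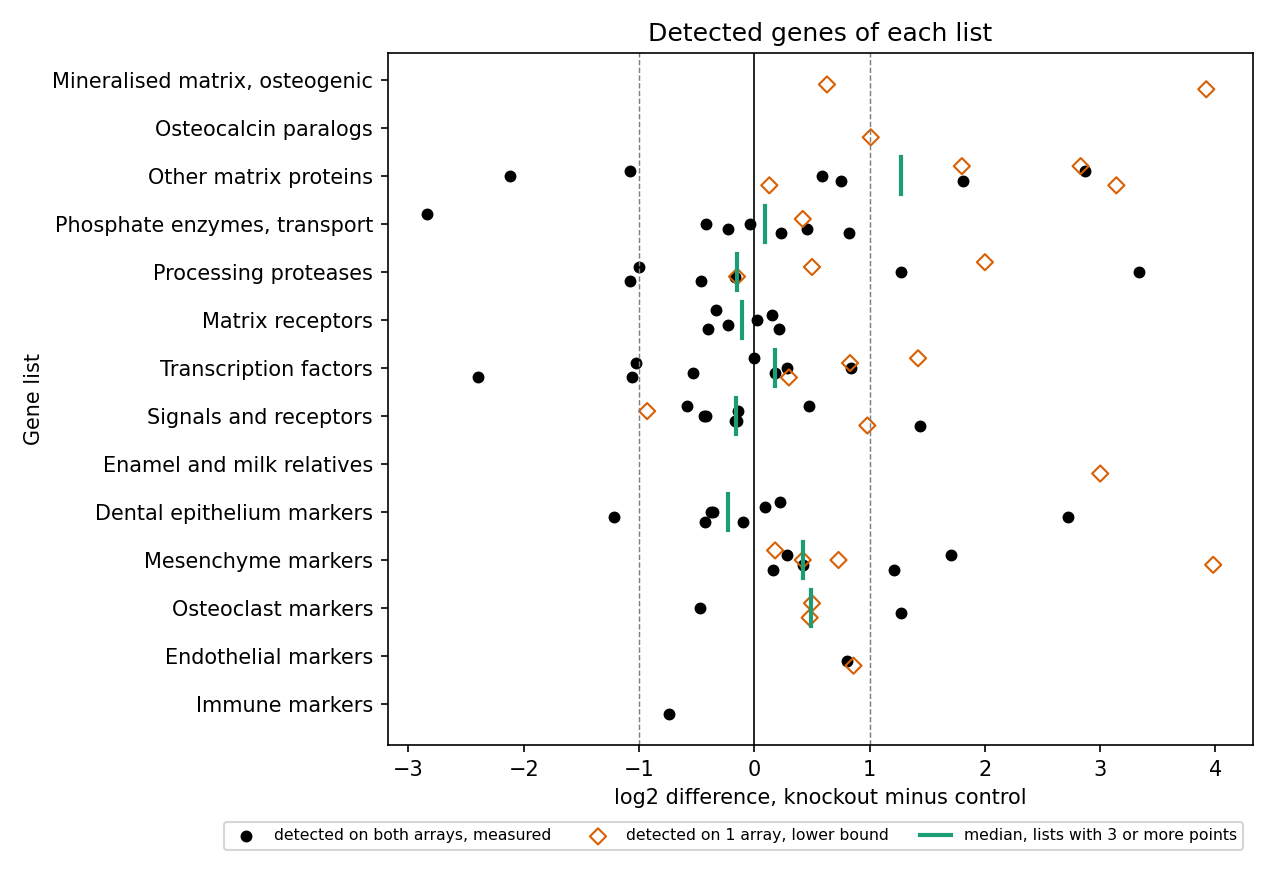
The log2 difference, knockout minus control, of the detected genes in each list, as a point where both arrays detected the gene and as an open diamond at the lower bound where 1 array did, with a line at the median for lists of 3 or more and dashed lines at 2-fold. Matrix proteins spread mostly to the right (5 of 10 at least 2-fold higher), while the receptors lie between -0.40 and 0.21.

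Some markers of mesenchymal cells also read higher in the knockout. The arrays detected 9 of 15. Upward, 5 passed 2-fold (3 by lower bound) and downward 0, and the median was 1.21, or 0.42 by lower bound. Thy1, Col3a1 and Tagln were among 4 markers detected on the knockout array only, which fixed their direction in advance. Without background correction 2 passed upward, Thy1 (6.92-fold) and Vim (2.11-fold). Thy1 read 1375 on the knockout array and 187 on the control array (at least 15.7-fold higher), Col3a1 286 and 159 (at least 1.66-fold), Cd248 412 and 238 (3.28-fold) and Tagln 263 and 194 (at least 1.34-fold). Pdgfra, Pdgfrb, Fap, Prrx1, Nes and Mfap5 were not detected on either array. The normalised intensities of the 9 detected markers summed to 29590 on the knockout array and 20416 on the control array. Acta2, an actin of smooth muscle and myofibroblasts, made up 24259 and 18129 of these sums and was 1.34-fold higher, and the 8 others summed to 5331 and 2287. Their part in the readings of Ibsp and Sp7 was not tested, and in RNA of a whole culture more cells of a type and more RNA per cell cannot be told apart.

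Markers of other cells that can surround mineral were detected in part, where the share over all genes was 49.5%. Of 8 osteoclast markers 4 were detected: Ctsk, given above, Acp5 (267 on the knockout array and 221 on the control array), Mmp9 (269 and 236) and Oscar (301 and 369). Calcr, Dcstamp, Tnfrsf11a and Atp6v0d2 were not detected, and the normalised intensities of the 4 detected markers summed to 623 and 451. Of 8 endothelial markers Flt1 (298 and 182) and Egfl7 (999 and 672) were detected, and their normalised intensities summed to 1013 and 535. Pecam1, Cdh5, Kdr, Tie1, Tek and Emcn were not detected. Of 7 immune markers Cd14 alone was detected (269 and 352, normalised values 112 and 187), and Ptprc was not.

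No detected gene next to this cluster passed the 2-fold rule, and only its Dspp side had probes. In the RefSeq gene table of GRCm38.p6, Dspp, Dmp1, Ibsp, Mepe and Spp1 follow each other on chromosome 5 with no other protein-coding gene between them. Of the 5 protein-coding genes on each side, 3 of 10 had a probe and 2 were detected. The genes with a probe all lay on the Dspp side, and none on the Spp1 side had one. Nudt9, an ADP-ribose hydrolase, read 999 on the knockout array and 1341 on the control array, a log2 difference of -0.41, and Hsd17b11, a hydroxysteroid dehydrogenase, read 230 and 241 and was detected on the control array only. Sparcl1, a matrix glycoprotein related to osteonectin, read 200 and 202 and was not detected. Of 6 measured enamel and milk proteins of the same wider gene family, Ambn, encoding ameloblastin, read 777 and 236 (at least 8.02-fold higher, but 3.2-fold without background correction), and Enam, Amelx, Csn2, Csn3 and Csn1s2a were not detected.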

How the data were processed

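RNA of knockout and control cells in culture was read on Illumina bead arrays, 1 for each genotype. The deposited table, per the file headers, holds mean bead signal intensity on a linear scale, not normalized between arrays, and a detection p-value against each array's negative control beads. The deposited processed intensity values have no method given in the sources used here. Per the submitters' processing notes, GenomeStudio 2011.1 was used, in a role not stated.

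Signals were corrected with normexp, with the negative control mean and variance estimated through the detection p-values, then given an offset of 16 and quantile normalized on the log2 scale (neqc, limma 3.58.1, R 4.3.3). The procedure was tested on simulated data. The changed probes there started well above background on the control array, unlike Ibsp, Sp7 and Bglap2, so their case was not covered. Of 25697 probes, 23978 had 1 gene symbol, 0 several and 1719 were unnamed here, and 23962 were found by gene identifier in the RefSeq gene table. Each gene took its brightest probe. A gene was called at 2-fold when detected (p-value under 0.01) on at least 1 array, a rule of size. For a gene detected on 1 array, the fold is a lower bound. Named genes are all members, the dental epithelium and sex-linked lists, the neighbours of the phosphoprotein cluster, and up to 4 genes of each other list with the largest absolute difference. Other genes in the text, among them undetected list members, were added after their values were seen. The members and lists were chosen with earlier results of these data known. Alternatives covered background, offset, scaling, detection, probes and thresholds.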

Additional observations from a re-analysis of the deposited data

How the results depend on the processing

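Over the settings tried, Ibsp and Sp7 were higher on the knockout array wherever they were called. Their detection on that array only fixed this direction in advance. The number of the 8 measured genes detected was 2, and became 4 at a detection p-value under 0.05, 8 with no filter and 0 when both arrays had to detect the gene. The number at least 2-fold higher was 2, and became 1 without background correction, 1 with the deposited values, 1 with lower bounds (added after the data were seen) and 0 with detection on both arrays, where no gene of the group was left. The count of 0 lower genes held under each setting. Where Ibsp and Sp7 alone were counted, their detection on the knockout array only fixed this in advance. Over all genes, the 2-fold rule called 686 higher and 536 lower. These counts became 331 and 197 without background correction, 344 and 211 with the deposited values, 402 and 299 with detection on both arrays, 1203 and 1344 at 1.5-fold and 365 and 204 at 3-fold. With normexp on the signal alone 325 were lower. Genes whose signal stayed near the negative controls, such as Alpl and Phex, could not be measured on these arrays. No paired analysis was possible because each genotype had 1 array.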
